A study of Avicennia schaueriana with 18 samples.

Results

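Flowers were compared with stems of *Avicennia schaueriana*, a mangrove tree of the Atlantic coast of South America, at the equatorial site. The libraries were chosen by their labels: Eq4_F and Eq5_F are flowers of trees Eq4 and Eq5, and Eq4_S, Eq5_S and Eq6_S are stems of trees Eq4, Eq5 and Eq6, which makes 5 of the 18 RNA-sequencing libraries of the study. Flowers therefore had only 2 libraries. The study sequenced leaves, stems and flowers of 3 adult flowering trees at each of 2 sites, growing wild and untreated, and each library is 1 tissue of 1 tree. The air was at 28.5 °C and 49% relative humidity when Eq4 was sampled, at 28.3 °C and 51% for Eq5, and at 30.1 °C and 47% for Eq6. Solar irradiance was 1940.73, 2724.54 and 1433.68 kJ per square metre for Eq4, Eq5 and Eq6. Eq4 was sampled at 11:57, Eq5 at 12:22 and Eq6 later in the day, at about 16 h. The parts of light and hour were not tested. The flower library labelled Eq6 was left out because its origin is in doubt. Of 65 transcripts that were counted in every subtropical leaf and stem library and in no equatorial one, it counted 53, against 3 in Eq4 flower and 3 in Eq5 flower. Of 36 transcripts exclusive in the same sense to equatorial trees, it counted 6, against 31 in each of the retained flower libraries.

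A flower is a short shoot whose leaves have become sepals, petals, stamens and carpels, and it is mostly made of soft tissue with thin primary walls, pigments and reproductive cells. A woody stem holds xylem, whose vessels and fibres lay down a thick secondary wall of cellulose, xylan and lignin under NAC and MYB regulators before they die, and a bark that can be green. Galactinol synthase and raffinose synthases make the raffinose family of sugars, which serve in transport and storage and accumulate in many plants under drought, salt or cold. All values are from bulk tissue, in which fewer cells of a type and less RNA per cell cannot be told apart.

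Sequences of the assembled transcripts were not used here, and 4 transcripts described below are identified by the primers that the study designed for their qRT-PCR assays. GolS1 and PSAO were higher in stems, DNAJ was higher in flowers, and LAC4 belongs to the secondary wall group. Each is written 5′ to 3′, left then right, as the study's primer table gives it, and no base is capitalised because no motif was searched.
GolS1 (As_13564) left: tttgaacccgccaaatccac
GolS1 (As_13564) right: acgcatttggaatcggcttg
PSAO (As_26420) left: aacagtccaaggtgccacag
PSAO (As_26420) right: aagcattccggccatcaacg
DNAJ (As_26086) left: ggaaatgagcagccaaatcagc
DNAJ (As_26086) right: attgccatctcgcttgaaggtg
LAC4 (As_15146) left: acgcaacacctgtaacaacc
LAC4 (As_15146) right: tggcaaacatcagtgagtggtc

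The deposited values are raw counts of reads that mapped to a single transcript of the study's own assembly, 49490 transcripts in all. Total counts were 5055480 and 9616658 in Eq4 and Eq5 flowers, and 15802680, 10120311 and 15633627 in Eq4, Eq5 and Eq6 stems. Eq4 flower was the shallowest library, and its most abundant 10 transcripts held 17.1% of its counts against 7.39% in Eq5 flower. Levels are given below as CPM (counts per 1000000 counts of the library), with library sizes scaled by TMM, edgeR's trimmed mean method, over these 5 libraries unless another set is named. Differences are log2 fold changes, flower minus stem, ± the standard error, and an adjusted p is that of edgeR's quasi-likelihood test after Benjamini-Hochberg adjustment, for which every transcript tested counts and the threshold was 0.05.

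Tissue identity was checked against transcripts that were restricted to 1 tissue in the 9 subtropical libraries, with at least 5 CPM in each of its libraries and at most 0.5 CPM in every library of the other tissues. Of 90 transcripts restricted to subtropical flowers, Eq4 and Eq5 flowers counted 89 each, while Eq4, Eq5 and Eq6 stems counted 34, 23 and 43. Their summed level, on sizes scaled over the 18 libraries, was 1645 and 3302 CPM in the flowers and 10.4, 8.97 and 28.2 CPM in the stems. Of 20 transcripts restricted to subtropical stems, the 3 equatorial stems counted all 20, with summed levels of 316, 332 and 409 CPM, and the flowers counted 5 and 3, with 3.03 and 1.27 CPM. The 16 transcripts restricted to leaves summed to between 1.14 and 2.56 CPM in the 5 libraries, against 326, 848 and 176 CPM in the equatorial leaves. All 5 libraries thus carried the transcripts of the tissue on their label. Transcripts of floral organ identity genes were not looked up, since the names used here come from lists of other functions.

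**Figure D1:**
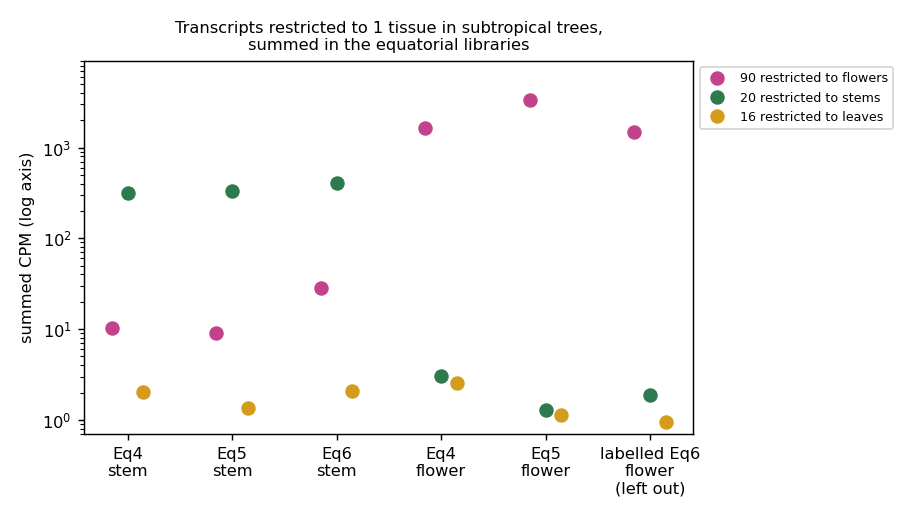
Summed CPM (log axis, sizes scaled over 18 libraries) of transcripts restricted to flowers, stems or leaves of subtropical trees, in each equatorial stem and flower library, 1 point per list and library. The flower list lies at 1645 and 3302 CPM in Eq4 and Eq5 flowers and at or below 28.2 CPM in the 3 stems, and the stem list shows the opposite order.

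Flowers and stems differed in a large part of the transcriptome, and more of the transcripts that passed the test were higher in flowers. After the filter on low counts 32782 transcripts were tested, of which 24838 (75.8%) are named as coding. Of these 32782, 5063 passed the test (15.4%), 3370 of them higher in flowers (10.3%) and 1693 higher in stems (5.16%), so that flowers took 66.6% of the calls. At an unadjusted p under 0.05, 10835 transcripts differed, 5866 higher in flowers and 4969 higher in stems. The median log2 fold change over all transcripts tested was -0.10. In each of the 5063 called transcripts the libraries of the 2 tissues did not overlap, whereas over all transcripts tested both flower libraries lay above all stem libraries in 26.7% and below them in 27.4%.

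Flowers and stems of Eq4 and Eq5 come from the same trees, and with the tree as a block 2609 transcripts (7.96%) were higher in stems and 4294 (13.1%) in flowers. That fit compares tissues within Eq4 and Eq5 only, so each difference given below with the block rests on the paired libraries of these trees alone. The counts fell when 1 library was left out: to 1440 calls without Eq4 flower, 984 without Eq5 flower, 2241 without Eq4 stem and 2825 without Eq5 stem. Without Eq6 stem there were 6023 (19.7%), 3841 higher in flowers (12.6%) and 2182 higher in stems (7.14%). Each tree has 1 sequencing index that its 3 libraries share, so libraries of 1 tree could not be read apart within 1 pool. The labels name no pool or lane. Within a tree the part of the pool cannot be told apart from that of the tissue, and it was not tested.

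The called differences were larger on the flower side. Counts totalled 4.16e+07 over the 3 stems and 1.47e+07 over the 2 flowers, and the part of this depth in the sizes was not tested. Among calls the median absolute log2 fold change was 3.19 for transcripts higher in flowers (median standard error 0.52) and 2.503 for those higher in stems (0.47). A difference of at least 5 on the log2 scale, was reached by 1085 calls higher in flowers (32.2%) and by 289 higher in stems (17.1%). The 3370 transcripts higher in flowers held 23.1 and 28.9% of all counts in Eq4 and Eq5 flowers and 5.04, 6.22 and 5.97% in Eq4, Eq5 and Eq6 stems. The 1693 higher in stems held 7.78, 8.29 and 8.02% of the counts in stems and 1.56 and 1.25% in flowers. Within each tissue these shares lay close together. The transcripts were called in these same libraries, so the shares follow from the choice and are no separate support. All 322 tested transcripts at 0 counts in all 3 stems were called, and 184 of the 342 tested at 0 in both flowers. Such transcripts passed the filter on low counts only through the tissue that counted them, so these numbers are no separate support for a difference.

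Coding transcripts made up most calls, 2904 of those higher in flowers and 1382 of those higher in stems, which are 11.7% and 5.56% of the coding transcripts tested. Among 7944 non-coding transcripts tested, 466 (5.87%) were higher in flowers and 311 (3.91%) higher in stems. The median log2 fold change was -0.02 over coding and -0.35 over non-coding transcripts.

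**Figure D2:**
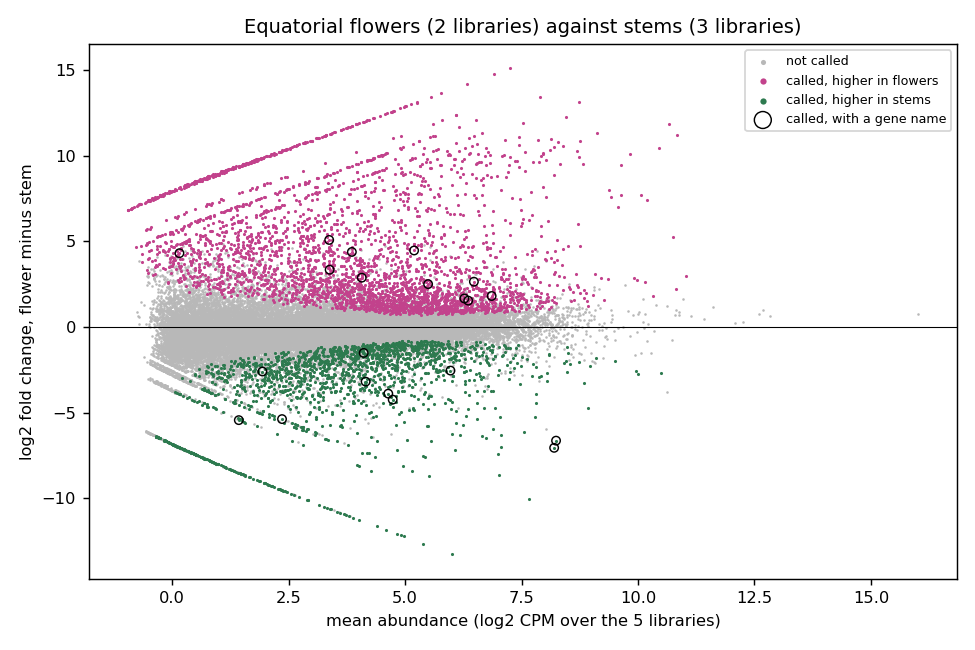
Log2 fold change of flower minus stem (y axis) against mean log2 CPM over the 5 libraries (x axis) for the 32782 transcripts tested, 1 point per transcript, with calls higher in flowers in pink, calls higher in stems in green, called transcripts with a gene name circled, and transcripts with 0 or few counts in 1 tissue along the slanting lines. Calls with a difference of at least 5 are more frequent above 0 (1085, higher in flowers) than below it (289, higher in stems).

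The whole profile separated by tissue. The leading log2 fold change distance, the typical size of the 500 largest differences between a pair of libraries, was 3.64 between the flowers and 3.40, 4.19 and 4.05 between the stems, and it lay between 7.62 and 8.49 in the 6 pairs of a flower and a stem. Every pair across tissues was farther apart than every pair within a tissue. The mean distance between tissues exceeded that within tissues by 4.19, with p = 0.1 by an exact two-sided permutation test, the smallest p that 2 against 3 libraries can give. Flower and stem of the same tree were 8.05 apart for Eq4 and 7.70 for Eq5.

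The largest differences were in transcripts with no gene name in the tables used here, of which the 2 largest in each direction are given. As_24061 had 0 counts in all 3 stems and 1140 and 3958 counts in Eq4 and Eq5 flowers, or 269 and 491 CPM, at least 5858-fold higher in flowers when the stems are set at the floor of 3 counts over the group (adjusted p = 0.0057). As_24090 had 0 counts in the stems and 216 and 387 CPM in the flowers, at least 4645-fold higher. Both are coding by name, and none of the 6 leaf libraries of the study counted either. Among subtropical stems, St1 held 42 counts of As_24061 and 34 of As_24090, while St2 and St4 held 0 of both. In the other direction, As_26958 had 167, 107 and 45.0 CPM in Eq4, Eq5 and Eq6 stems and 0 counts in both flowers, at least 437-fold higher in stems (adjusted p = 0.0088). The non-coding transcript non_cod_As_28385 had 88.1, 43.1 and 76.1 CPM in stems and 0 counts in both flowers, at least 283-fold higher in stems. Each of the 4 was without a count in every library of the lower tissue among the 5 compared. In subtropical flowers, St1 held 2 counts of As_26958 and St4 held 2 of non_cod_As_28385.

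Of 130 transcripts that the study's tables of differentially expressed transcripts, primers and polymorphic loci name, 129 have a match in *Arabidopsis thaliana*, and their roles below are those of the *Arabidopsis* genes. The study chose most of them because they differed between sites in leaves or stems, with the equatorial stems among those libraries, so they are not an independent sample of functions. Of 124 tested, 11 (8.87%) were higher in flowers and 10 (8.06%) higher in stems, beside 10.3% and 5.16% of all transcripts. With the tree as a block these numbers were 18 and 20, beside 13.1% and 7.96% of all transcripts. Block counts of single lists below are to be read beside the same 13.1% and 7.96%. The median log2 fold change of the 124 was -0.14. Of the 21 calls, 13 were lost without Eq4 flower, 16 without Eq5 flower, 7 without Eq4 stem, 9 without Eq5 stem and 1 without Eq6 stem. The 5 that were kept in each of these fits were both IPP1 transcripts, ABC4, DRT102 and AT3G24480.

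**Figure D3:**
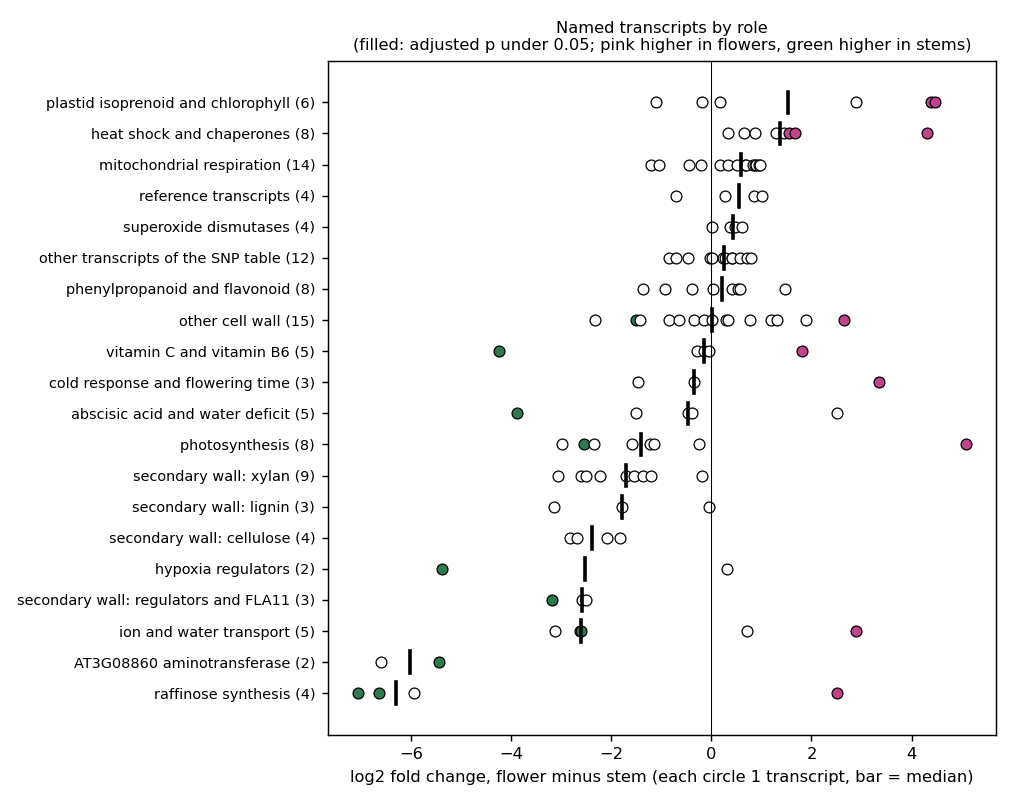
Log2 fold change of flower minus stem (x axis) of each annotated transcript tested, 1 circle per transcript, in rows by role with the number tested in brackets, filled where called (pink higher in flowers, green higher in stems) and with a bar at the median. Raffinose synthesis has 3 of 4 circles far to the stem side and a median of -6.30, whereas superoxide dismutases lie between 0.01 and 0.62.

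Raffinose metabolism held the largest differences among named genes, with 2 synthetic enzymes higher in stems and an enzyme of raffinose breakdown higher in flowers. GolS1 (As_13564), galactinol synthase, makes the galactosyl donor of the pathway, and had 217, 1184 and 98.1 CPM in Eq4, Eq5 and Eq6 stems and 8.01 and 2.36 CPM in Eq4 and Eq5 flowers. The stems spread widely, with Eq5 highest, and still did not overlap with the flowers (log2 fold change -6.64 ± 1.5, adjusted p = 0.037). RFS4 (As_11264), a galactinol-sucrose galactosyltransferase, had 204, 963 and 293 CPM in stems and 4.71 and 2.73 CPM in flowers. It showed the largest difference of all named genes and was highest in Eq5 stem again (-7.06 ± 1.01, adjusted p = 0.012). SIP1 (As_13250), a raffinose synthase, had 116, 1126 and 44.9 CPM in stems and 6.60 and 7.20 CPM in flowers, a log2 fold change of -5.95 ± 1.68 with an adjusted p of 0.065. Its libraries did not overlap, and with the tree as a block its adjusted p was 0.0026.

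SIP2 (As_44184), in *Arabidopsis* an alkaline alpha-galactosidase that acts on raffinose, went the other way. It had 29.2, 8.32 and 9.41 CPM in stems and 93.3 and 85.3 CPM in flowers, with no overlap (2.51 ± 0.57, adjusted p = 0.038). In all, 2 of the 4 members were called higher in stems and 1 higher in flowers, with a median log2 fold change of -6.30. The 4 members had the same sign in subtropical trees, where GolS1 differed by -9.01, RFS4 by -7.16, SIP1 by -5.09 and SIP2 by 0.84. Without Eq4 flower the adjusted p was 0.0761 for RFS4, 0.141 for GolS1 and 0.147 for SIP2, and without Eq5 flower it was 0.107, 0.217 and 0.169. Without Eq4 stem it was 0.0639 for GolS1, and without Eq5 stem 0.080 for SIP2.

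**Figure D4:**
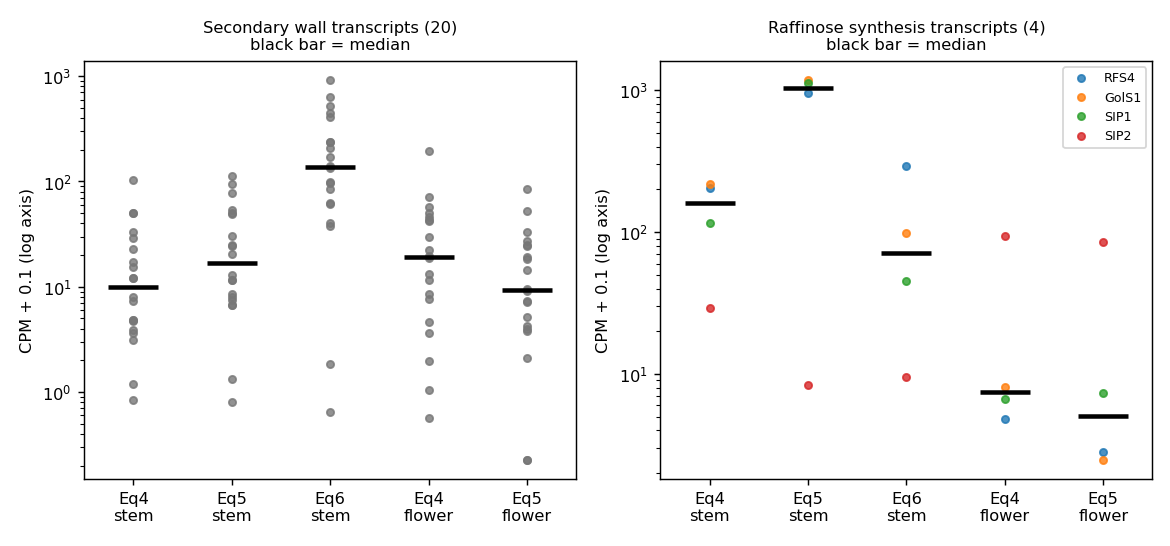
CPM + 0.1 (log axes) of the 20 secondary wall transcripts (left) and the 4 raffinose transcripts (right) in each equatorial stem and flower library, 1 point per transcript and library, with bars at the medians. The wall median is 138 CPM in Eq6 stem against 9.25 to 19.1 CPM in the other libraries, while GolS1, RFS4 and SIP1 are higher in all 3 stems than in both flowers and SIP2 is lower.

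Secondary wall transcripts, the markers of xylem, did not separate the equatorial tissues by the test, and their difference rested mostly on 1 stem. CESA4 (As_17083), a catalytic subunit of the secondary wall cellulose synthase, had 32.9, 77.6 and 628 CPM in Eq4, Eq5 and Eq6 stems and 46.0 and 24.1 CPM in flowers. Eq4 flower was above Eq4 stem and Eq6 stem was far above all others, so that the tissues overlapped (-2.82 ± 1.33, adjusted p = 0.20). CESA8 (As_12790) had 29.2, 49.9 and 522 CPM in stems and 43.4 and 19.0 CPM in flowers, and CESA7 (As_14056) had 22.8, 53.9 and 449 CPM in stems and 50.2 and 32.8 CPM in flowers. COBL4 (As_17319), a COBRA-like protein of secondary wall cellulose deposition, had 11.9, 20.5 and 171 CPM in stems and 29.7 and 9.06 CPM in flowers. In all 4 both flowers were far below Eq6 stem, and Eq4 flower was above Eq4 stem.

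In the lignin enzymes Eq6 stem was also the highest library. LAC4 (As_15146), a laccase that polymerises lignin, had 50.6, 113 and 922 CPM in stems and 57.5 and 24.6 CPM in flowers (-3.14 ± 1.37, adjusted p = 0.17). The peroxidase AT5G66390 (As_19837) had 49.98, 48.9 and 408 CPM in stems and 71.6 and 26.8 CPM in flowers. The peroxidase AT5G05340 (As_16204) differed by -0.05 ± 0.54 between tissues. Among regulators, NST1 (As_38619), a NAC factor that switches on the secondary wall programme, had 3.55, 7.35 and 37.7 CPM in stems and 3.54 and 1.99 CPM in flowers (-2.59 ± 1.13, adjusted p = 0.17). FLA11 (As_22978), a fasciclin-like arabinogalactan protein of secondary walls, had 12.1, 25.0 and 208 CPM in stems and 19.6 and 9.44 CPM in flowers. Eq6 stem was again highest and Eq4 stem lowest of the stems in both.

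MYB52 (As_45261), an R2R3 MYB factor linked to secondary walls, was the exception. It had 17, 24.2 and 40.0 CPM in stems and 1.89 and 3.85 CPM in flowers, with no overlap (-3.19 ± 0.54, adjusted p = 0.017). Its call did not need Eq6 stem (-2.80, adjusted p = 0.013 without it), but was lost without Eq4 flower (adjusted p = 0.0969) and without Eq5 flower (0.0847).

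Over the 20 secondary wall transcripts, 1 of 19 tested was called, MYB52, and all 19 had a negative log2 fold change, with a median of -2.23. In subtropical trees 7 of 18 tested were called higher in stems and 0 higher in flowers, with a median of -1.18. Over all transcripts tested there, 10.4% were higher in stems and 12.6% in flowers, the shares for the subtropical list counts below as well. Eq6 stem was the highest stem in 19 of 20 and above both flowers in 20, with a median level 17.2 times that of Eq4 stem and 8.33 times that of Eq5 stem. Within trees, the median ratio of flower to stem was 1.49 for Eq4, with 15 of 20 transcripts higher in the flower, and 0.443 for Eq5, with 3 of 20 higher. Without Eq6 stem the list's median was -0.18, and with the tree as a block, which takes nothing from Eq6 stem, it was -0.17. By class the medians with and without Eq6 stem were -2.39 and -0.13 for cellulose, -1.71 and -0.15 for xylan, -1.79 and -0.02 for lignin, and -2.59 and -1.02 for regulators. IRX14-L (As_1581), a xylan synthesis protein named here after its values were seen, had 7.29, 11.6 and 141 CPM in stems and 41.7 and 52.1 CPM in flowers. It differed by -0.18 in all 5 libraries, and by 2.34 within trees (adjusted p = 0.0013) and 2.31 without Eq6 stem (0.0091), higher in flowers in those fits.

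Other cell wall transcripts, those of primary walls and of wall modification, were mixed. Of 15 tested, 1 was called higher in flowers and 1 higher in stems (block 3 and 2). The list's median was 0.01, and 0.63 without Eq6 stem, so it depended on that library. Some members are named here after their values were seen. GH9B7, COB (As_15010), CSLA2 and RGP1 were highest in Eq6 stem, whereas GATL2 and AT4G34480 were lowest in it. AT3G24480 (As_45776), a leucine-rich repeat extensin-like protein, had 30.8, 23.5 and 31.5 CPM in stems and 124 and 235 CPM in flowers (2.65 ± 0.33, adjusted p = 0.0085). AT5G56590 (As_18420), a family 17 glycosyl hydrolase, had 19.4, 24.6 and 24.8 CPM in stems and 8.25 and 7.82 CPM in flowers (-1.51 ± 0.26, adjusted p = 0.018). Replicates of each tissue lay close together in AT3G24480 and AT5G56590, and the tissues did not overlap. The call of AT5G56590 was lost without Eq4 flower (0.0929), Eq5 flower (0.122) or Eq5 stem (0.0572).

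Of the photosynthesis transcripts, which mark green tissue, 7 of 8 had a negative log2 fold change, and 1 was called in each direction. PSAO (As_26420), subunit O of photosystem I, had 118, 69.0 and 93.1 CPM in stems and 24.7 and 7.70 CPM in flowers. All stems were above both flowers (-2.54 ± 0.56, adjusted p = 0.034), and the call was lost without Eq5 flower (0.113), Eq4 stem (0.0841) or Eq5 stem (0.0583). PHOT2 (As_13960), the blue light receptor of chloroplast movement, had 117, 107 and 37.4 CPM in stems and 26.4 and 48.0 CPM in flowers. Eq6 stem overlapped with the flowers, and the adjusted p was 0.19, against 0.012 with the tree as a block and 0.025 without Eq6 stem. PSB27 (As_15863), an assembly factor of photosystem II, had 17.2, 2.89 and 9.95 CPM in stems and 7.07 and 2.23 CPM in flowers, with overlap (-1.15 ± 0.86, adjusted p = 0.39). The list's median was -1.40, and with the block 5 members were called higher in stems and 1 higher in flowers.

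ABC4 (As_25935), a prenyltransferase of phylloquinone synthesis in plastids, was opposite to the rest of that list. It had 0.24, 1.05 and 0.92 CPM in stems and 23.8 and 26.4 CPM in flowers (5.09 ± 0.57, adjusted p = 0.0073), the largest difference toward flowers among named genes. In subtropical trees it was also higher in flowers (3.80).

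In the list of plastid isoprenoid and chlorophyll synthesis, 2 of 6 tested transcripts were called higher in flowers, both of them copies of IPP1, and none higher in stems, with a median of 1.53 (block 3 and 0). Subtropical trees differed, with a median of -1.39 over 7 tested, 1 called higher in flowers and 4 higher in stems. Isopentenyl diphosphate isomerase, IPP1, makes the allylic unit from which carotenoids, gibberellins, sterols and the tail of chlorophyll are built. One IPP1 transcript, As_19328, had 3.92, 3.94 and 3.73 CPM in stems and 57.7 and 114 CPM in flowers (4.47 ± 0.34, adjusted p = 0.0054). The other, As_21256, had 2.27, 1.05 and 1.51 CPM in stems and 35.8 and 32.7 CPM in flowers (4.39 ± 0.38, adjusted p = 0.0057). The stems of As_19328 were nearly equal, and in both transcripts the tissues were far apart. Reads shared between such copies of a gene were not counted, so the level of each may be understated.

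The other enzymes of the list did not pass the test. ISPD (As_48417), an enzyme of the plastid precursor pathway named here after its values were seen, had 9.19, 6.30 and 9.35 CPM in stems and 4.71 and 3.10 CPM in flowers, all stems above both flowers (-1.10, adjusted p = 0.12). GGPS1, geranylgeranyl diphosphate synthase, had a transcript (As_17120) at 18.4, 20.5 and 2.60 CPM in stems and 70.2 and 135 CPM in flowers (2.90, adjusted p = 0.064, 0.0022 with the block), and a copy (As_24340) that differed by 0.17. CAO (As_12775), chlorophyllide a oxygenase, had 4.35, 7.79 and 1.62 CPM in stems and 4.48 and 3.60 CPM in flowers, a difference of -0.18 ± 0.69. CLA1 (As_26117), the entry enzyme of the plastid pathway, had 0 counts in all 5 libraries and was not tested.

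Of 5 transcripts of vitamin C and vitamin B6 metabolism and associated ultraviolet tolerance, 1 was called in each direction. VTC2 (As_15617), GDP-L-galactose phosphorylase, a controlling step of ascorbate synthesis, had 49.0, 75.4 and 49.0 CPM in stems and 123 and 283 CPM in flowers (1.81 ± 0.41, adjusted p = 0.038). Its call was lost without Eq5 flower (0.208), Eq4 stem (0.109), Eq5 stem (0.0634) or Eq6 stem (0.0527). DRT102 (As_14939), named for DNA damage repair and toleration, had 38.3, 42.8 and 45.4 CPM in stems and 2.36 and 2.11 CPM in flowers. Its replicates were nearly equal within each tissue (-4.24 ± 0.27, adjusted p = 0.0054), and it was lower in flowers of subtropical trees as well (-3.93). PMM, a phosphomannomutase, and both PDX2 transcripts of vitamin B6 synthesis differed by -0.28, -0.14 and -0.05, with overlapping tissues. The 4 superoxide dismutases, which remove superoxide, had log2 fold changes of 0.01 for FSD2, 0.37 and 0.48 for the CSD1 transcripts and 0.62 for CSD2, and none passed the test. In subtropical trees their median was -0.80, with 1 called in each direction.

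Heat shock proteins and chaperones had positive log2 fold changes in all 8 transcripts, with a median of 1.38. Of these, 3 were called higher in flowers, beside 10.3% of all transcripts tested. With 1 library left out, the 2 HSP101 transcripts fell as low as -0.18 (As_23151) and -5.61 (As_23412), and the other members stayed positive. As_23412 had only 12 and 0 counts in Eq4 and Eq5 flowers. HSP17.4 (As_12732), a small heat shock protein that holds unfolding proteins, had 62.8, 35.2 and 25.7 CPM in stems and 138 and 125 CPM in flowers (1.67 ± 0.39, adjusted p = 0.041). AT3G53990 (As_20859), an adenine nucleotide alpha hydrolase-like protein, had 33.6, 57.2 and 48.2 CPM in stems and 141 and 129 CPM in flowers (1.54 ± 0.28, adjusted p = 0.020). Flowers were above all stems in both. DNAJ (As_26086), a co-chaperone of Hsp70, had 0, 2 and 4 counts in stems and 18 and 12 counts in flowers, so that its log2 fold change of 4.32 ± 1.0 (adjusted p = 0.039, 0.0498 with the block) rested on few counts. Flower and stem of a tree share the same air temperature record. Eq6 stem (30.1 °C) has no flower in this comparison, and the part of temperature was not tested. Without Eq4 flower the adjusted p was 0.163 for HSP17.4, 0.0988 for AT3G53990 and 0.219 for DNAJ, and without Eq5 flower 0.178, 0.11 and 0.118. DNAJ was also lost without Eq4 stem (0.0625) and Eq5 stem (0.0868), and HSP17.4 without Eq5 stem (0.112).

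Abscisic acid and water deficit genes did not move together, with 1 of 5 called higher in stems and a median of -0.47 (block 1 in flowers and 2 in stems). HB-7 (As_17082), a homeodomain factor induced by drought and abscisic acid, had 35.2, 70.0 and 12.5 CPM in stems and 1.41 and 3.60 CPM in flowers (-3.89 ± 0.89, adjusted p = 0.037). Its tissues did not overlap, and in subtropical trees it differed by -3.40. The call was lost without Eq4 flower (0.182), Eq5 flower (0.164), Eq4 stem (0.0811) or Eq5 stem (0.0619). RD26 (As_12052), a NAC factor of the same response, had 225, 127 and 29.0 CPM in stems and 644 and 796 CPM in flowers. It was higher in both flowers than in any stem, with a log2 fold change of 2.5 ± 0.77 and an adjusted p of 0.080, and 0.0094 with the block.

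NCED3 (As_19228), which catalyses the committed step of abscisic acid synthesis, had 80.7, 29.5 and 7.41 CPM in stems and 22.2 and 37.4 CPM in flowers, with overlap (-0.39 ± 0.90). RAP2.4, an AP2 family factor, had 2 transcripts: As_15910 differed by -1.5 ± 0.60 (adjusted p = 0.14, 0.0488 with the block) and As_11218 by -0.47 ± 0.64. In Eq4 stem NCED3 and As_11218 were at their highest, 80.7 and 614 CPM.

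Transport genes split by member, with 1 of 5 called in each direction. SLAH3 (As_30027), an anion channel permeable to nitrate, had 5.33, 2.54 and 6.27 CPM in stems and 32.5 and 37.6 CPM in flowers (2.88 ± 0.41, adjusted p = 0.011). AT3G21620 (As_27360), a dehydration-responsive membrane protein, had 8.21, 3.59 and 3.95 CPM in stems and 1.18 and 0.62 CPM in flowers (-2.60 ± 0.65, adjusted p = 0.048). Its flowers held 5 counts each. ERD4 (As_2569), of the same family, had 7.29, 8.84 and 87.9 CPM in stems and 5.18 and 2.98 CPM in flowers, and PIP1;4 (As_20592), an aquaporin, had 9.74, 27.1 and 224 CPM in stems and 19.1 and 9.56 CPM in flowers. Both stood out in Eq6 stem, as the secondary wall transcripts did, and neither passed the test (adjusted p = 0.16 and 0.24). The other PIP1;4 transcript (As_44068) differed by 0.71 ± 0.57. SLAH3 was lost without Eq4 flower (0.056) and Eq5 flower (0.0835), and AT3G21620 without either flower (0.131 and 0.245), Eq4 stem (0.0991) or Eq5 stem (0.0737).

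Of 2 hypoxia regulators, 1 was called higher in stems. RAP2.3 (As_38607), a group VII ethylene response factor of hypoxia signalling, had 10.5, 4.64 and 8.06 CPM in stems and 0.47 and 0 CPM in flowers (-5.38 ± 1.05, adjusted p = 0.025). The flowers held 2 and 0 counts, and the call was lost without Eq5 flower (0.103) or Eq4 stem (0.0663). HRA1 (As_48776), which attenuates that response, differed by 0.31 ± 0.42. An aminotransferase, AT3G08860, annotated as an alanine-glyoxylate aminotransferase homolog, had 2 transcripts. As_46832 had 3.0, 5.25 and 3.46 CPM in stems and 0 and 1 count in flowers (-5.44 ± 0.86, adjusted p = 0.015), and lost its call without Eq4 flower (0.0621) or Eq5 flower (0.0705). As_31165 had 5, 13 and 30 counts in stems and 0 in both flowers, at least 4.19-fold higher in stems with the flowers at the floor of 3 counts over the group, and an adjusted p of 0.096.

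In the list of cold response and flowering time, 1 of 3 tested transcripts was called. AT2G37770 (As_3802), an aldo-keto reductase-like protein, had 0.73, 2.63 and 3.35 CPM in stems and 18.9 and 26.8 CPM in flowers (3.35 ± 0.62, adjusted p = 0.021), and was lost without Eq4 flower (0.0792), Eq5 flower (0.137) or Eq5 stem (0.0592). ATSGS1 (As_25244), a RecQ helicase, differed by -1.47 ± 0.52 and ATRZ-1A (As_16912), a glycine-rich RNA-binding protein, by -0.35 ± 0.34, neither past the test. AGL24 (As_10296), a MADS box promoter of flowering, had 0, 2 and 2 counts in stems and 6 and 0 in flowers, too few to be tested. The malate dehydrogenase MDH (As_26169) had 0 counts in all 5 libraries.

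No member passed the test among 14 transcripts of mitochondrial respiration (median 0.60), 8 of phenylpropanoid and flavonoid synthesis (0.22, and -0.25 without Eq6 stem) and 12 others from the study's table of polymorphic loci (0.25). At an unadjusted p under 0.05 they counted 0, 0 and 3. The block called 1 transcript of each list higher in stems and 1 of the phenylpropanoid list higher in flowers. The 4 qRT-PCR reference transcripts were not called either. UBP12 (As_44296) was 34.9, 34.9 and 31.5 CPM in stems and 20.7 and 20.9 CPM in flowers (-0.70 ± 0.20, adjusted p = 0.069), and EIF4A1 (As_19713) differed by 0.27 ± 0.25. UBQ6 (As_18630) differed by 0.85 ± 0.26 (adjusted p = 0.084, 0.0492 with the block) and UBC11 (As_43999) by 1.02 ± 0.35 (0.10).

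The subtropical trees, with 3 flower and 3 stem libraries, share no library with the equatorial comparison. There 4163 transcripts were higher in flowers (12.6% of 32913 tested) and 3434 higher in stems (10.4%). Over 30358 transcripts tested at both sites, the log2 fold changes had a Pearson correlation of 0.845 and a Spearman correlation of 0.788, across transcripts, which are not independent. Of the equatorial calls, 2151 higher in flowers were also called there (63.8% of the equatorial and 51.7% of the subtropical calls), and 1163 higher in stems (68.7% and 33.9%). Opposite calls numbered 9, each higher in flowers of equatorial and in stems of subtropical trees. Among equatorial calls tested in both, 98.2% had the same sign, beside 81.3% of all transcripts.

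The difference between flower and stem was itself tested between sites as an interaction over the 11 libraries. Of 38585 transcripts 4 passed (0.0104%), each with a larger flower excess in equatorial trees, against 2310 at an unadjusted p under 0.05 and 242 by DESeq2. Of these 4 only IPP1 (As_19328) has a gene name. On sizes scaled over the 11 libraries, it had 4.21, 4.23 and 4.01 CPM in equatorial stems and 118, 96.6 and 68.1 CPM in subtropical stems, and 59.9 and 116 CPM in equatorial against 86.7, 87.4 and 99.3 CPM in subtropical flowers. The flowers of the sites overlapped and only the stems did not (interaction 4.45 ± 0.41, adjusted p = 0.011). In equatorial leaves it held 2453, 1502 and 694 counts. The adjusted p was 0.083 without Eq4 stem and 0.053 without Eq5 stem.

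The other 3 transcripts, named here because they passed that test, have no gene name. As_23124 had between 0.13 and 0.35 CPM in equatorial stems, 3.18 and 3.66 CPM in equatorial flowers, 660, 225 and 163 CPM in subtropical stems and between 0.18 and 1.78 CPM in subtropical flowers (interaction 12.68 ± 1.21, adjusted p = 0.011). It was thus set apart by its level in subtropical stems. As_25801 had 73.1 and 18.7 CPM in equatorial flowers and at most 0.80 CPM in the stems of either site and in subtropical flowers (8.76 ± 1.02, adjusted p = 0.036). As_5404 had 143 and 37.1 CPM in equatorial flowers, between 2.09 and 4.18 CPM in the stems of both sites and between 0.18 and 0.88 CPM in subtropical flowers (7.44 ± 0.85, adjusted p = 0.036, 0.055 with the block). Both were set apart by the equatorial flowers, with Eq4 above Eq5. None of the 3 passed without Eq4 stem (0.083, 0.15 and 0.17) or Eq5 stem (0.054, 0.12 and 0.12), nor without Eq4 flower (0.089, 0.13 and 0.10), and As_23124 also not without Eq5 flower (0.052).

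Among other named genes the sites gave values side by side. Of 115 annotated transcripts tested at both sites, 94 had the same sign. DRT102 was 45.3 ± 3.87 CPM in equatorial stems and 2.29 ± 0.21 in flowers (SD, n = 3 and 2), and 18.1 ± 7.26 and 1.17 ± 1.30 CPM in subtropical trees (SD, n = 3 and 3). SLAH3 was 5.06 ± 2.09 and 36.0 ± 3.14 CPM in equatorial stems and flowers, and 5.70 ± 3.47 and 11.2 ± 4.45 CPM in subtropical ones, with an interaction of 1.84 ± 0.70 that did not pass (adjusted p = 0.73). DNAJ differed by 4.32 in equatorial and 0.02 in subtropical trees (interaction adjusted p = 0.41).

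**Figure D5:**
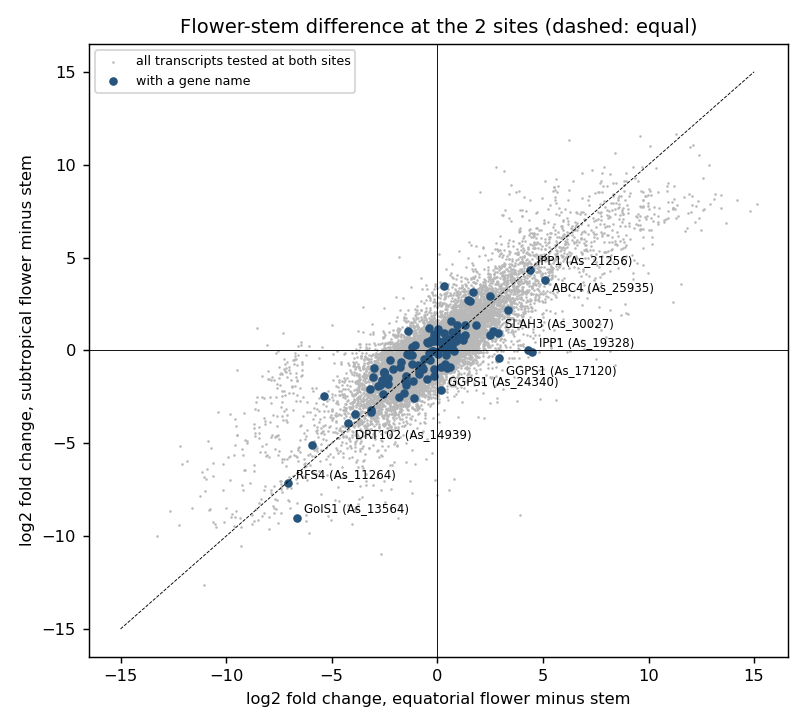
Log2 fold change of flower minus stem in subtropical trees (y axis) against that in equatorial trees (x axis), 1 grey point for each of 30358 transcripts tested at both sites, with annotated transcripts in blue and the line of equal differences dashed. Most points follow the line (Pearson correlation 0.845), while IPP1 (As_19328) lies at 4.47 on the equatorial and -0.07 on the subtropical axis.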

How the data were processed

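Libraries for RNA-seq were made of 3 tissues of 6 trees, 18 in all. The authors assembled paired-end reads into a transcriptome, mapped reads to it with Bowtie 0.12.2 (per the labels) and deposited raw counts of uniquely mapped reads per transcript, with no normalization. No genome was used, and the methods give single-read mode with default parameters for mapping reads to transcripts. Samples were grouped by their labels. The 18 single-sample files equal the columns of the joint table.

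Flowers (2 libraries) and stems (3) of equatorial trees were compared with edgeR 4.0.16 (limma 3.58.1, R 4.3.3): filterByExpr by tissue, TMM scaling, glmQLFit and glmQLFTest, Benjamini-Hochberg adjusted p under 0.05. Standard errors were computed as log2 fold change divided by the root of the F statistic. The study's methods used edgeR's exact test, which was an alternative, with DESeq2 1.42.0, RLE scaling, other filters, a fit over 17 libraries, the flower library labelled Eq6 included, and each library left out in turn (with 1 flower left, it is assumed to vary like the stems). The common biological coefficient of variation was 0.412. The script was tested on simulated data. Annotation came from the study's tables of named transcripts. No 2 replicates agreed within sampling noise (chi-square per transcript at least 37.6). Within a tissue each library is a separate tree, the 5 libraries come from 3 trees, and sampling noise and depth (5055480 to 15802680 counts) limit low transcripts.

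By the labels, a flower and a stem library with one number share a tree. The Pearson correlation of their deviations from the tissue means over 32782 transcripts was 0.0383 for Eq4 and 0.163 for Eq5, and the tree was fitted as a block as an alternative.

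Named transcripts are, in each list by role, up to 4 called in each direction with the largest difference, all members of lists of 5 or fewer, the 10 targets and 4 references of the qRT-PCR primers, the secondary wall cellulose transcripts, and 2 unnamed transcripts in each direction with at least 10 CPM in every library of the higher tissue and no overlap. Members and lists were chosen with earlier results of these data known.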

Additional observations from a re-analysis of the deposited data

Results flagged for a closer look

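The difference between flowers and stems was itself different between equatorial and subtropical trees in 4 transcripts by edgeR's quasi-likelihood test of the interaction. The equatorial minus the subtropical log2 fold change was 4.45 for IPP1 (As_19328), 12.68 for As_23124, 8.76 for As_25801 and 7.44 for As_5404.

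The flower library labelled Eq6, which the comparison of 5 libraries leaves out, counted 53 of the 65 transcripts that are exclusive to the leaves and stems of subtropical trees. The other equatorial flower libraries counted 3 each, and the subtropical flower libraries 59, 59 and 48.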

How the results depend on the processing

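The 5063 calls became 8093 in a fit over 17 libraries and 8098 by DESeq2, and ranged from 984 to 6023 with 1 library left out. Those higher in flowers ranged from 875 to 3841 with 1 library left out. Those higher in stems were 3428 in the fit over 17 libraries, 3242 by DESeq2, 3006 by the exact test and 2609 with the tree as a block, and ranged from 109 to 2182. Interaction calls were 242 by DESeq2, 10 with the tree as a block and 0 to 18 with 1 library left out. The other counts stayed within 1.5 times of the main ones. No call turned into a call of the opposite direction in any alternative, although 1 called transcript changed sign with the flower library labelled Eq6 included. The pairing by tree (block) gave 6903 calls and lost 459 of the 5063. Among annotated transcripts it lost none of the 21 calls and added 17, and of the 4 transcripts called in the interaction it lost As_5404.

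Among 60 named transcripts, 671 alternative values kept direction and side of the threshold, 54 lost and 29 gained a call, and 23 values of 10 transcripts, none of them called in the 5 libraries, changed sign. With 1 library left out, RAP2.4 (As_11218) ranged from -0.84 to 0.37, NCED3 (As_19228) from -0.90 to 0.69, CESA7 (As_14056) from -2.61 to 0.10, COBL4 (As_17319) from -2.88 to 0.23, CAO (As_12775) from -0.60 to 0.43, FSD2 (As_15772) from -0.25 to 0.23, AT5G05340 (As_16204) from -0.74 to 0.48, PMM (As_18774) from -0.87 to 0.17, and the PDX2 transcripts from -0.44 to 0.0895 (As_4337) and from -0.38 to 0.21 (As_48360). With the block CESA7 was 0.20, COBL4 0.0936, FSD2 -0.0372 and AT5G05340 0.38. With the flower library labelled Eq6 included, FSD2 was -0.18, AT5G05340 0.21 and PMM 0.52. FSD2 was -0.0060 in the fit over 17 libraries and -0.0232 with no filter. The cause was not tested, except that Eq6 stem is left out or unused in the positive CESA7 and COBL4 values. Of 22 list medians, 7 changed sign or reached 0 in at least 1 of 13 alternatives. They ranged from -0.42 to 0.04 for all annotated transcripts, from -0.38 to 1.16 for mitochondrial respiration, from -0.52 to 1.12 for cold response and flowering time, from -0.25 to 0.33 for phenylpropanoids and flavonoids, from -0.22 to 0.67 for other cell wall, from -0.90 to 0.37 for abscisic acid and water deficit, and from -0.41 to 0.09 for vitamin C and vitamin B6. A flower group of 2 libraries, the shallower at 5055480 counts, limits all calls.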
